A study of Mus musculus with 3 samples.

Results

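The genes described are 10 contractile and myofibroblast genes of the mouse lung, Acta2, Tagln, Myh11, Cnn1, Myl9, Des, Tpm1, Tpm2, Actg2 and Lmod1, of 22954 genes listed in each library. They were followed in 19619 cells of 3 single-cell libraries, 1 library of 1 mouse each. All the mice were female C57BL6/J animals without a genetic modification named in the labels, entered the experiments at 8 to 9 weeks of age and received 13 Gy to the thorax, and the lungs were taken 5 months later. The CONV mouse was irradiated at a conventional dose rate and the FLASH mouse at an ultra-high dose rate. The CONV AsiDNA mouse was irradiated as CONV and also received AsiDNA, a short DNA duplex joined to cholesterol that serves as a decoy for break repair. It was given at 100 mg/kg on the days before and 200 mg/kg on the day of irradiation. Libraries of unirradiated mice were not analysed here, so no value has an unirradiated level beside it. With 1 mouse per condition no difference between conditions can be tested, and each interval covers the sampling of cells within 1 library only.

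Smooth muscle cells contract when myosin filaments pull on filaments of smooth muscle actin, and the members cover the parts of that machine. Acta2 and Actg2 encode the smooth muscle actins, Myh11 the smooth muscle myosin heavy chain, and Myl9 the regulatory light chain whose phosphorylation starts contraction. Tpm1 and Tpm2 encode tropomyosins that lie along the actin filament, Tagln and Cnn1 encode the actin-binding proteins transgelin and calponin, Lmod1 a leiomodin that nucleates actin filaments, and Des the intermediate filament protein desmin. In the lung these genes mark the muscle of airways and vessels, and a part of them, Acta2 above all, is also switched on in fibroblasts of the alveolar duct and in myofibroblasts, the collagen-producing contractile cells of scar tissue. Serum response factor with its coactivator myocardin binds a short sequence known as the CArG box in the promoters of many of these genes.

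Positions are given in mm10, the mouse build of the submitters' processing notes, with spans taken from the GENCODE annotation and all of them protein coding. Acta2 lies at chr19:34241090-34255590 on the minus strand, Tagln at chr9:45929619-45936058 (minus), Myh11 at chr16:14194535-14291372 (minus) and Cnn1 at chr9:22099216-22109630 (plus). Myl9 spans chr2:156775420-156781658 (plus), Des chr1:75360329-75368579 (plus), Tpm1 chr9:67022590-67049406 (minus) and Tpm2 chr4:43514711-43523765 (minus). Actg2 spans chr6:83512905-83536265 (minus) and Lmod1 chr1:135324807-135368065 (plus). The RefSeq promoter set (GRCm38.p6, 250 bases before to 50 after the gene start) matched 7 of the 10, and Tagln, Myh11 and Actg2 had no entry. Promoters were searched for the CArG box, a palindromic pattern that reads the same on both strands. An exact box stood in the promoter of Myl9 alone among the 7, and in 1.63% of all 32851 promoters. With up to 1 mismatch allowed inside the A/T core, and the outer CC and GG kept, boxes stood in 2 of the 7, Acta2 and Myl9, and in 9.98% of all promoters. Counted from the RefSeq gene start, they began 84 and 34 bases before it in Acta2, and 161 (the exact one) and 99 bases before it in Myl9. The RefSeq starts of both genes lie inside the GENCODE spans given above, so by GENCODE the Acta2 boxes fall within the gene and the Myl9 boxes before it. The promoter of Tpm1, the member found in the widest range of cells below, is shown for comparison and held no box by either of these rules. Mismatches in the outer bases were not searched. A match describes the letters only and is no evidence of binding. The sequences are given 5′ to 3′ with the boxes in capitals.
Acta2 promoter, chr19:34255324-34255623, minus strand: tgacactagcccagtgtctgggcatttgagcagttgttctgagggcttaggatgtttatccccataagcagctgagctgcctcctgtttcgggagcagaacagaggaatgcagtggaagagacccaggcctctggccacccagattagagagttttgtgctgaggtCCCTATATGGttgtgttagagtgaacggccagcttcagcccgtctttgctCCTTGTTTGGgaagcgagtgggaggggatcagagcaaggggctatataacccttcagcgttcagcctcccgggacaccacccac
Myl9 promoter, chr2:156775214-156775513, plus strand: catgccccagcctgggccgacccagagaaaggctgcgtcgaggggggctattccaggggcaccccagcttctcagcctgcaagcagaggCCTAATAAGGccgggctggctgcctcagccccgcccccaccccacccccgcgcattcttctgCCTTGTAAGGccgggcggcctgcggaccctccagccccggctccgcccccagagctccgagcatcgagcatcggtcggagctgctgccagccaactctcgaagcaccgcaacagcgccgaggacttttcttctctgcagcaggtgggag
Tpm1 promoter, chr9:67049164-67049463, minus strand: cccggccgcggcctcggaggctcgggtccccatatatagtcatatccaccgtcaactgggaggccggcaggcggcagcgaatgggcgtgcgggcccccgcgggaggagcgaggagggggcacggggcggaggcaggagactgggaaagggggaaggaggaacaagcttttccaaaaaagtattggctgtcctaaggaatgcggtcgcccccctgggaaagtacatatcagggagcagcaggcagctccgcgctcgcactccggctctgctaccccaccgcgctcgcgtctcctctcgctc

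Cells were assigned to classes by marker genes that exclude all 10 members, so member levels did not choose the cells directly. The smooth muscle gate held 44 cells of the CONV mouse, 55 of the CONV AsiDNA mouse and 42 of the FLASH mouse. Pecam1 and Epcam, which mark endothelial and epithelial cells, were listed at 0 in every one of them, as was the immune marker Ptprc, by the rule of the gate. The fibroblast gate held 69, 124 and 182 cells, which separated into alveolar (39, 69 and 134), adventitial (19, 32 and 28) and ductal fibroblasts (4, 12 and 19), with 7, 11 and 1 left without a subtype. The ductal gate rests on Hhip, which was above 0 in all of its cells, and on related markers of the alveolar duct. No cell entered the pericyte gate in any library. Higd1b, a defining pericyte marker, was above 0 in 1 cell of each library, while 25, 20 and 16 cells of the smooth muscle gate had 3 or more of the pericyte markers that smooth muscle also uses, such as Cspg4. The members could therefore not be described in pericytes. The libraries had median totals of 3450, 3678 and 3621 adjusted counts per cell, whole numbers recovered from the deposited log values, and shared 9 to 17 cell barcodes per pair. In the smooth muscle gate the medians were 4254.5, 4064 and 3946. The mitochondrial share of the libraries differed, with medians of 0.628%, 0.18% and 1.35%, and its part in the results was not tested.

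Most of the signal of 9 members came from the few smooth muscle cells. In the order CONV, CONV AsiDNA, FLASH, which is kept wherever 3 values follow each other, that gate held 88.5%, 90.8% and 93.6% of the adjusted counts of Acta2, and 89.4%, 85.1% and 78.9% of those of Tagln, although it held 0.691%, 0.788% and 0.67% of the cells. For Myh11, Cnn1, Myl9, Des, Tpm2, Actg2 and Lmod1 the share in that gate lay between 81% and 99.7%. Tpm1 was the exception, with 17.2%, 23.4% and 20.5% of its counts there. Fibroblasts contributed a part that differed most between libraries for Tagln, at 2.37%, 7.38% and 17.7% of its counts. Over the immune cells of each library (4772, 4906 and 4287 cells, median totals 3359, 3490.5 and 3493), Acta2, Tagln, Myh11, Cnn1, Des, Tpm2 and Actg2 were listed at 0 in every cell. Myl9 was above 0 in 1 immune cell of FLASH and Lmod1 in 1 of CONV and 1 of FLASH, whereas Tpm1 was above 0 in 20, 60 and 4. These zeros are in adjusted values whose adjustment is not known, so they do not measure free RNA.

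**Figure D1:**
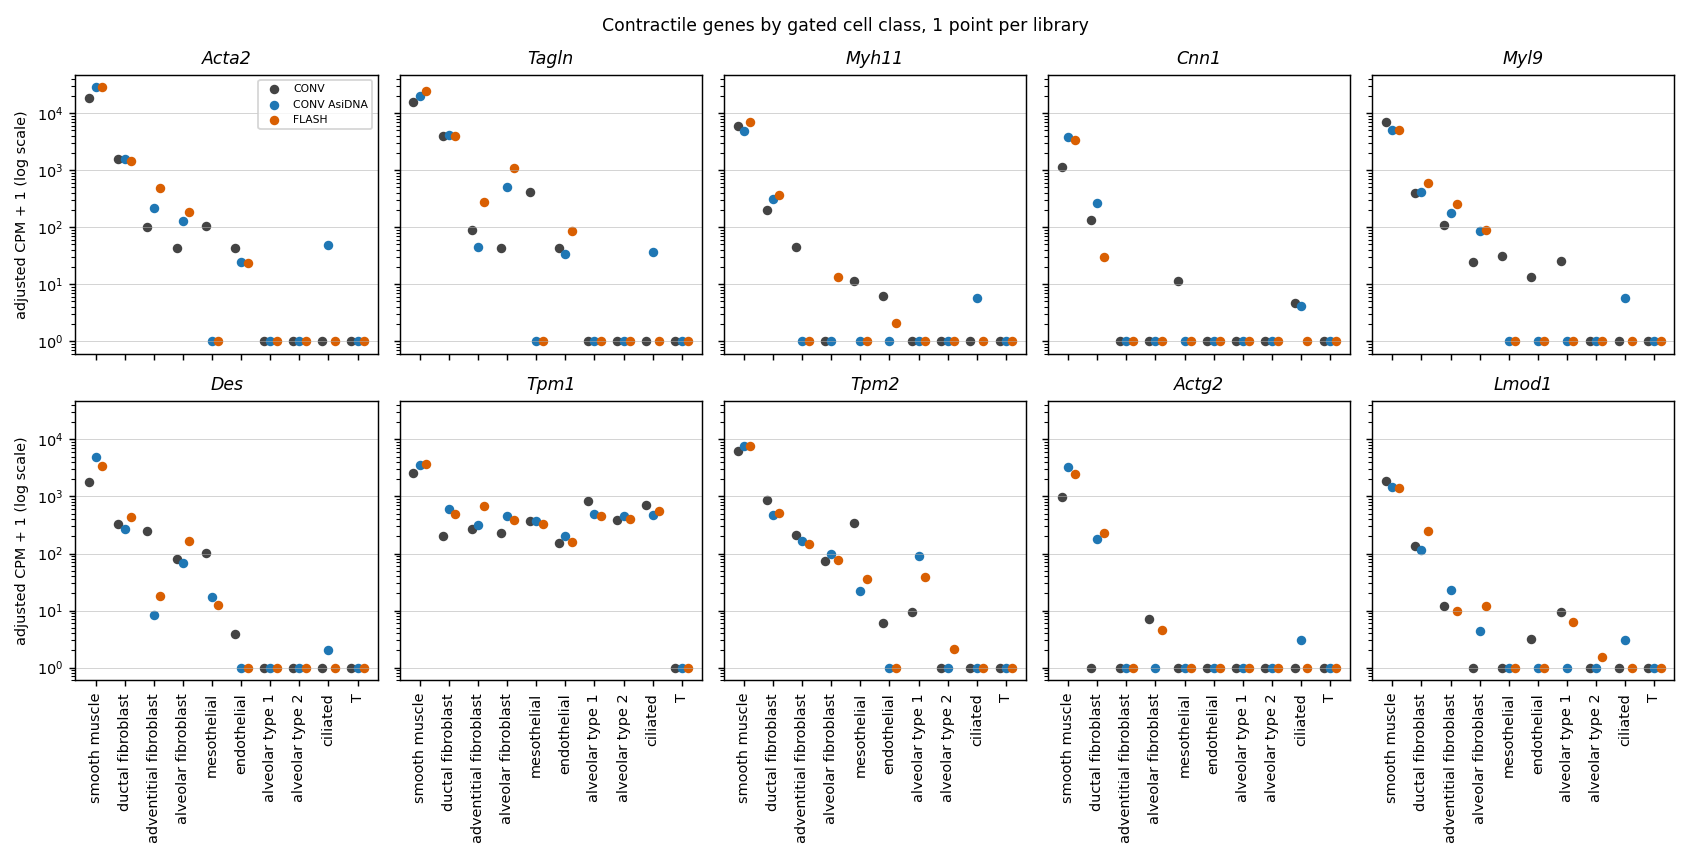
Adjusted counts per 1000000 (CPM, plus 1, log axis) of each contractile gene, 1 panel per gene, summed over the cells of 10 gated classes (horizontal axis), with 1 point per library. All 10 genes are highest in the smooth muscle gate, and Tpm1 stays between 153.8 and 848.8 CPM in all other classes shown apart from T cells, where every member is listed at 0.

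In smooth muscle cells the actins differed between the libraries in unequal measure. Acta2 was above 0 in all cells of the gate, with levels of 18681 CPM (adjusted counts per 1000000 over the cells of the gate) in CONV against 28241 in CONV AsiDNA and 28385 in FLASH. The lowest, median and highest cell had 2, 78 and 230 adjusted counts in CONV. In CONV AsiDNA these were 9, 113 and 279 and in FLASH 14, 109.5 and 240, so the ranges overlapped almost fully while the CONV median was lower. Actg2, the actin typical of visceral muscle, was at 994.4, 3264 and 2508 CPM. It was above 0 in 79.5% of CONV cells (95% interval 64.7 to 90.2), 94.5% of CONV AsiDNA cells (84.9 to 98.9) and 100% of FLASH cells (91.6 to 100). The highest CONV cell had 15 adjusted counts of Actg2, against 91 and 38 in the other libraries, so CONV lacked the high cells. At a thinned depth of 1000 adjusted counts per cell the Actg2 shares were 40.9%, 78.2% and 83.3%.

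Of the actin-binding members, Tagln and Cnn1 were also lowest in CONV. Tagln was above 0 in every cell of the gate and stood at 15614, 20101 and 24014 CPM, with medians of 58.5, 79 and 96 adjusted counts per cell. Cnn1 was at 1128.5 CPM in CONV, well below the 3806 CPM of CONV AsiDNA and the 3377 of FLASH. Its median per cell was 4 in CONV and 10 and 9 in the others, and its highest cell had 13 adjusted counts in CONV against 68 and 45. The share of cells above 0 was 93.2%, 96.4% and 92.9% for Cnn1, and 61.4%, 81.8% and 81% after thinning to 1000 adjusted counts per cell, lowest in CONV. Lmod1 went the other way, at 1832, 1440 and 1396 CPM, with medians of 7, 5 and 5.5 and ranges of 0 to 19, 0 to 19 and 0 to 16.

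The myosin members did not follow the actins. Myh11 was at 6022, 4808.5 and 6879 CPM, with medians of 21, 18 and 25 adjusted counts and highest cells of 51, 68 and 68. Myl9 was at 6927, 5052 and 5122 CPM, with medians of 26.5, 19 and 20. CONV was thus between the other libraries for Myh11 and above both for Myl9. Both tropomyosins differed by less than 2-fold between the libraries. Tpm1 had 2631, 3625.5 and 3661 CPM with medians of 10.5, 14 and 13, and Tpm2 had 6279, 7526.5 and 7819 CPM with medians of 26.5, 25 and 30. Desmin was uneven between cells, with Des at 1782, 4826.5 and 3454 CPM and medians of 7, 11 and 10, while its highest cells had 22, 125 and 69 adjusted counts. The 5 highest cells held 27%, 40.1% and 37.3% of the Des counts, so the library level of Des rests on few cells. The same holds for Actg2, with 33.7%, 40.7% and 32.5% in the 5 highest cells, and for Cnn1, with 28.7%, 34.5% and 31.7%.

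**Figure D2:**
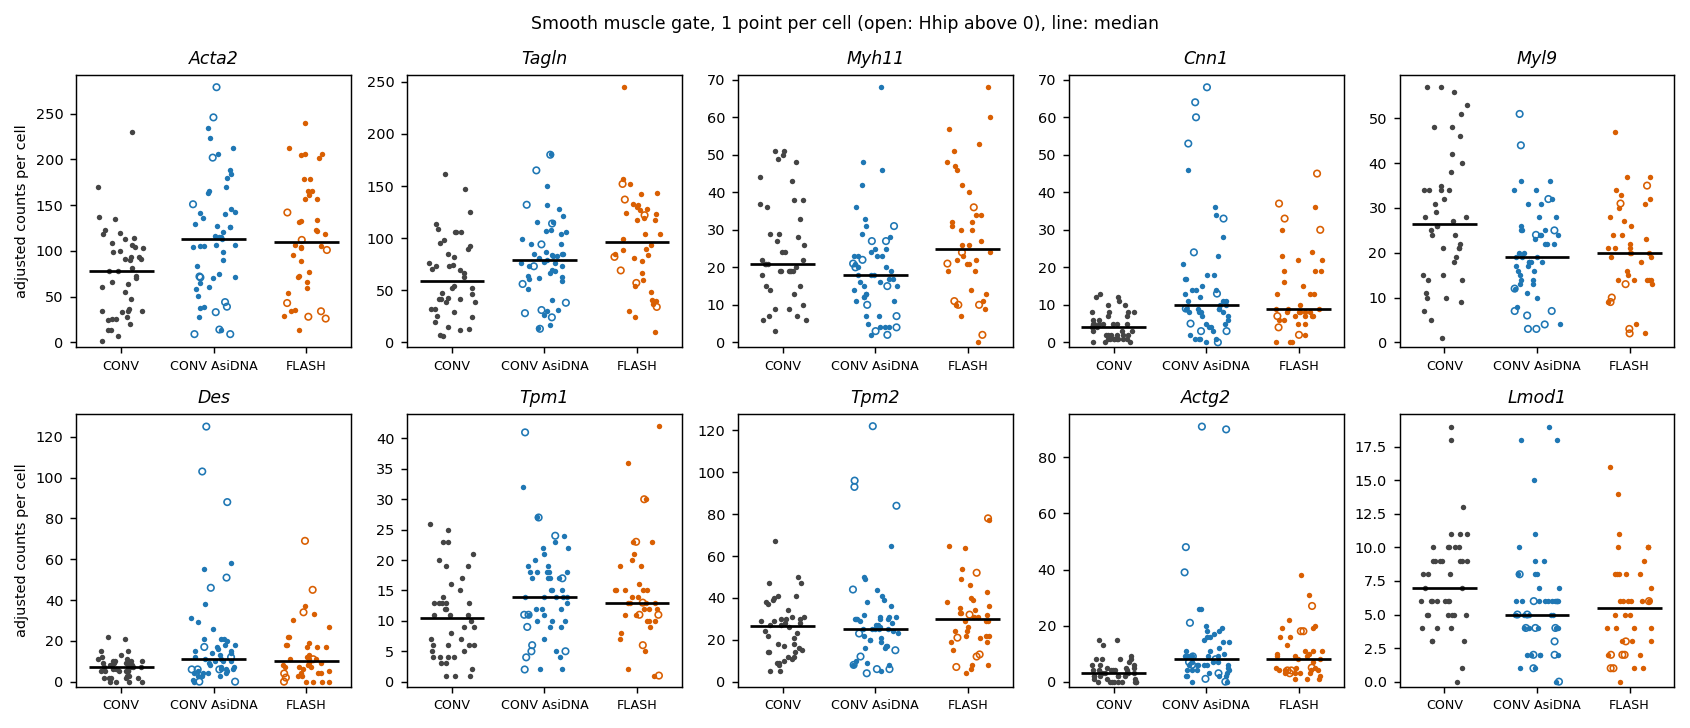
Adjusted counts per cell of each contractile gene in the smooth muscle gate, by library, with 1 point per cell, open points for cells with Hhip above 0 and a line at the median. The libraries overlap for every gene, and the CONV cells of Cnn1 and Actg2 stay at or below 13 and 15.

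On the log2 scale of CPM plus 10, 3 of the 10 members were at least 2-fold lower in CONV than in CONV AsiDNA in the smooth muscle gate, namely Cnn1 (-1.75), Actg2 (-1.70) and Des (-1.43). The background is that 5.50% of the 4294 genes with a sum of at least 20 were that much lower. Against FLASH, 2 of the 10 were, Cnn1 (-1.57) and Actg2 (-1.33), with a background of 5.24%. None of the 10 was 2-fold higher in CONV in either comparison, but no share of all genes is given for that direction, so nothing is read from it. Between CONV AsiDNA and FLASH none of the members was 2-fold apart, where 8.99% of the genes were. The median log2 ratio of the members was -0.41 against CONV AsiDNA and -0.54 against FLASH, beside 0.09 and 0.11 for all genes. Both comparisons share the CONV library and are not independent of each other.

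The smooth muscle gate differed between the libraries in cells with Hhip. Hhip, a hedgehog-binding protein, was above 0 in none of the 44 CONV cells but in 12 of 55 for CONV AsiDNA and 7 of 42 for FLASH, a split made after these values were seen. The Hhip cells carried more Cnn1 than the rest of the gate, 7252 against 2898 CPM in CONV AsiDNA and 5915 against 2901 in FLASH. Des stood at 9958 against 3474 CPM and at 6177 against 2943 in the same split, while Acta2 was lower in the Hhip cells, at 25307 against 29014 and 18193 against 30298. Without the Hhip cells the log2 ratio of CONV over CONV AsiDNA was -1.35 for Cnn1, -1.19 for Actg2 and -0.96 for Des, and over FLASH it was -1.35, -1.28 and -0.72. Cnn1 and Actg2 thus remained at least 2-fold lower in CONV and Des did not. The share of all genes that were 2-fold lower without the Hhip cells is not given here. Pericyte markers in the gate were highest in CONV as a sum, though not each of them. In each library 6 of the 8 pericyte markers were above 0 in at least 1 cell of the gate. Their summed level was 1351.9, 808 and 828 CPM, and Higd1b was listed at 0 in all cells of the gate. The 6 were not the same. Trpc6 was above 0 in 1 cell of CONV only, and Lamc3 in 1 cell each of CONV AsiDNA and FLASH. Pdgfrb was at 251, 149 and 142 CPM, Ndufa4l2 at 223.5, 85.8 and 53.2, Kcnk3 at 425, 239 and 207, and Cox4i2 at 117.3, 45.1 and 82.8. Cspg4 did not follow, at 329.6, 284.4 and 337.1 CPM, highest in FLASH. Cells with 3 or more of the pericyte markers made up 56.8%, 36.4% and 38.1% of the gate. Pln, a smooth muscle marker, was above 0 in 7 of 44, 0 of 55 and 1 of 42 cells. The other smooth muscle markers of the gate went both ways. Smtn stood at 720.7, 465 and 467.3 CPM, highest in CONV. Lowest in CONV were Mylk (1871.5, 2221.4 and 2578.9), Mustn1 (2268.1, 3648.1 and 3217.7) and Kcnmb1 (145.2, 203.2 and 224.8). Synpo2 stood at 770.9, 731.4 and 774.8, Ppp1r14a at 1458.1, 1480.9 and 1443.2, and Map3k7cl at 167.6, 117.4 and 177.4. Without the cells that had 3 or more pericyte markers, a split added after the values were seen, the ratios of CONV against CONV AsiDNA were -1.95 for Cnn1, -1.98 for Actg2 and -2.39 for Des, and against FLASH -1.86, -1.39 and -1.69. Within the cells that had 3 or more, they were -1.37, -1.04 and -0.28 against CONV AsiDNA and -0.98, -1.17 and -0.40 against FLASH, so Des differed little there. Actc1, the cardiac actin, which is outside the 10 members, was likewise lowest in CONV, at 3011, 8624 and 7039 CPM, and stayed so without the Hhip cells (-1.47 and -1.04). In the last 500 bases of the Actg2 transcripts, where 3′ libraries are read, 2.13% of 31-base words also occur in Actc1 or a predicted gene, and none did for the other members. Of 2 heart muscle genes looked up in the gate, Myh6 was listed at 0 in every cell and Tnnt2 was above 0 in 9 of 44, 12 of 55 and 6 of 42 cells, at 89.4, 302.5 and 106.5 CPM.

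Most smooth muscle cells expressed the whole set together. All 10 members were above 0 in 33 of 44 CONV cells, 49 of 55 CONV AsiDNA cells and 34 of 42 FLASH cells, and no cell of the gate had fewer than 6. Across the cells of 1 library, the members' shares of the cell total were correlated by rank, with a median Spearman rho over the 45 gene pairs of 0.42, 0.48 and 0.50, given as a description of cells that share a library. The highest pair was Acta2 with Cnn1 in CONV (0.75, 44 cells), Cnn1 with Actg2 in CONV AsiDNA (0.80, 55 cells) and Myl9 with Tpm2 in FLASH (0.82, 42 cells). Lmod1 was in the lowest or second lowest pair in every library, with Myl9 in CONV (0.03) and with Actg2 in CONV AsiDNA (0.06) and FLASH (0.18).

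**Figure D3:**
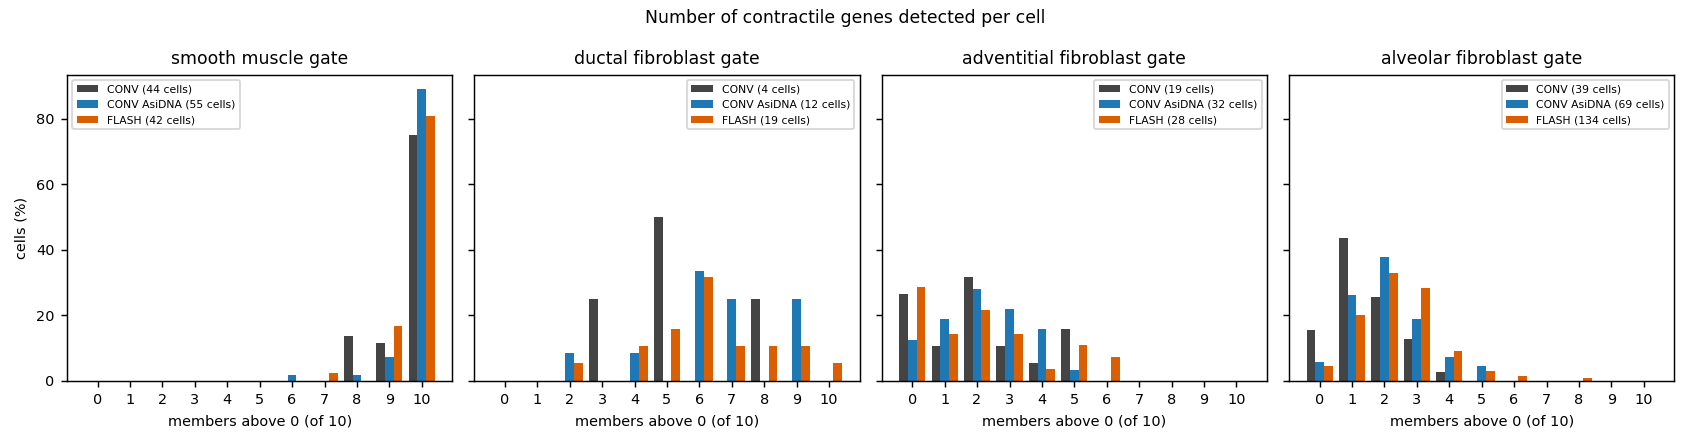
Percent of cells (vertical axis) by the number of the 10 contractile genes above 0 (horizontal axis), in 4 gates, with 1 bar colour per library. Smooth muscle cells lie between 6 and 10, ductal fibroblasts between 2 and 10, and most alveolar and adventitial fibroblasts at 5 or fewer.

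The comparison of cell classes could be tested, since each of the 3 mice supplied every class. Sums per class and library were fitted with limma with the library as a block, and p-values were adjusted over all 9514 genes tested. All 10 members were higher in smooth muscle cells than in alveolar fibroblasts, with a background of 7.65% of genes called higher, and every one was higher in each of the 3 libraries. The gate was made with other smooth muscle genes. Among these, Mustn1 and Synpo2 followed the mean of the members over the classes (both 0.938). Higher member levels in that gate therefore follow in part from the gating, here and in the comparisons with it below. Cnn1, Myh11 and Actg2 reached the filter of 10 CPM in 3 sums only through the smooth muscle sums, so they had to differ and their calls add nothing. The other 7 reached it in fibroblast sums alone, and all 7 were called, where 6.17% of the 8456 genes with such sums were called higher. Their differences ran from 3.22 ± 0.27 (SE, log2) for Tpm1 to 7.78 ± 0.30 for Acta2. Tagln differed by 5.99 ± 0.59, and the largest limma adjusted p among the 7 was 0.000154, for Des. Their median was 6.30, beside -0.09 for those 8456 genes, and 6.14 over the 6 members that were not listed at 0 in any of these sums. Lmod1 was listed at 0 in at least 1 library, and the size of its difference depends on the 10 CPM added.

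Ductal fibroblasts held an intermediate level, close to equal in the 3 libraries for Acta2 and Tagln. Acta2 was at 1533, 1593 and 1469.6 CPM, and Tagln at 3933, 4173 and 4038 CPM. Tagln was above 0 in 4 of 4, 12 of 12 and 17 of 19 ductal cells and Acta2 in 3, 10 and 15 of them. Myh11 was above 0 in 1, 8 and 7 cells, at 200, 314 and 371 CPM, and Cnn1 in 1, 2 and 2 cells, at 133, 269 and 28.5 CPM. Actg2 was listed at 0 in CONV and at 179.5 and 228 CPM in CONV AsiDNA and FLASH. The CONV values rest on 4 cells. Of the smooth muscle markers, Mylk was above 0 in 100%, 91.7% and 84.2% of ductal cells and Mustn1 in 100%, 100% and 94.7%. Smtn, Synpo2 and Ppp1r14a were above 0 in at most 41.7%, and Pln, Kcnmb1 and Map3k7cl were listed at 0. With 4 members added to the smooth muscle markers, the ductal gate held 3, 5 and 11 cells in place of 4, 12 and 19. In a limma fit with this gate, added after the data were seen, 7 of the 10 members were higher in ductal than in alveolar fibroblasts, where 1.96% of 10047 genes were called higher. They were Acta2 (3.78 ± 0.36), Tagln (3.72 ± 0.63), Myh11, Cnn1, Myl9, Tpm2 and Lmod1, with limma adjusted p from 5.87e-06 to 0.00123. Des (1.73 ± 0.70), Tpm1 (0.20 ± 0.31) and Actg2 (2.57 ± 0.76) were not called, with limma adjusted p of 0.157, 0.769 and 0.0555. Myh11, Cnn1 and Actg2 did not reach the filter in alveolar and adventitial sums, and of the 7 that did, 5 were called, beside 1.77% of such genes. The same fit put all 10 members higher in smooth muscle than in ductal fibroblasts, with a background of 4.72%. Actg2 reached the filter only with the smooth muscle sums, and the other 9 were all called, beside 3.92% of genes that reached it in fibroblast sums. The differences of these 9 ran from 2.27 ± 0.63 for Tagln to 4.41 ± 0.59 for Cnn1, and the highest limma adjusted p was 0.0379, for Tagln. With 1 in place of 10 added to the CPM, 6 of the 10 were called in that comparison, counted in either direction.

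In alveolar fibroblasts, the Col13a1-type cells of the alveolar wall, the share of cells with Tagln differed between the 3 libraries. It was above 0 in 5 of 39 CONV cells (12.8%, 95% interval 4.3 to 27.4), 32 of 69 CONV AsiDNA cells (46.4%, 34.3 to 58.8) and 105 of 134 FLASH cells (78.4%, 70.4 to 85), and no interval overlapped another. The level went from 41.9 CPM in CONV over 513 in CONV AsiDNA to 1073 in FLASH. The median cell had 0, 0 and 2.5 adjusted counts and the highest cell 2, 29 and 31. Thinned to 1000 adjusted counts per cell, the shares were 2.56% (0.0649 to 13.5), 21.7% (12.7 to 33.3) and 55.2% (46.4 to 63.8). After thinning, the intervals of CONV and CONV AsiDNA overlapped narrowly and that of FLASH lay above both. The share of all genes with separate intervals in this gate is not given here, so these values describe Tagln alone. The median totals of these cells were 4311, 4157 and 4028.5 adjusted counts. The thinning drew from adjusted counts, so it does not measure the part of the original sequencing depth, which was not tested.

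Acta2 did not separate in the same way. It was above 0 in 3 of 39, 13 of 69 and 17 of 134 alveolar fibroblasts (7.69%, 18.8% and 12.7%, or 2.56%, 11.6% and 8.21% after thinning), with intervals that overlapped in both cases, and its level was 41.9, 129 and 186 CPM. In FLASH, 2 cells held 55 of the 103 adjusted counts of Acta2, against highest cells of 5 in both other libraries. Without these 2 cells the FLASH level was 88.2 CPM, below that of CONV AsiDNA. Acta2 and Tagln were above 0 together in 0, 5 and 14 alveolar fibroblasts. Myl9 was at 23.9, 85 and 86.7 CPM, above 0 in 7.69%, 23.2% and 17.9% of cells. Des was above 0 in 30.8%, 17.4% and 40.3% of the cells, at 77.8, 68 and 162.6 CPM. Its intervals in CONV AsiDNA (9.32 to 28.4) and FLASH (31.9 to 49.1) did not overlap, again without a share of all genes beside it. Tpm1 was above 0 in 59%, 73.9% and 61.9%, and Tpm2 in 23.1%, 27.5% and 20.9%, with overlapping intervals for each. Cnn1 was listed at 0 in every alveolar fibroblast, and Myh11 was above 0 in 1 of them, in FLASH.

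**Figure D4:**
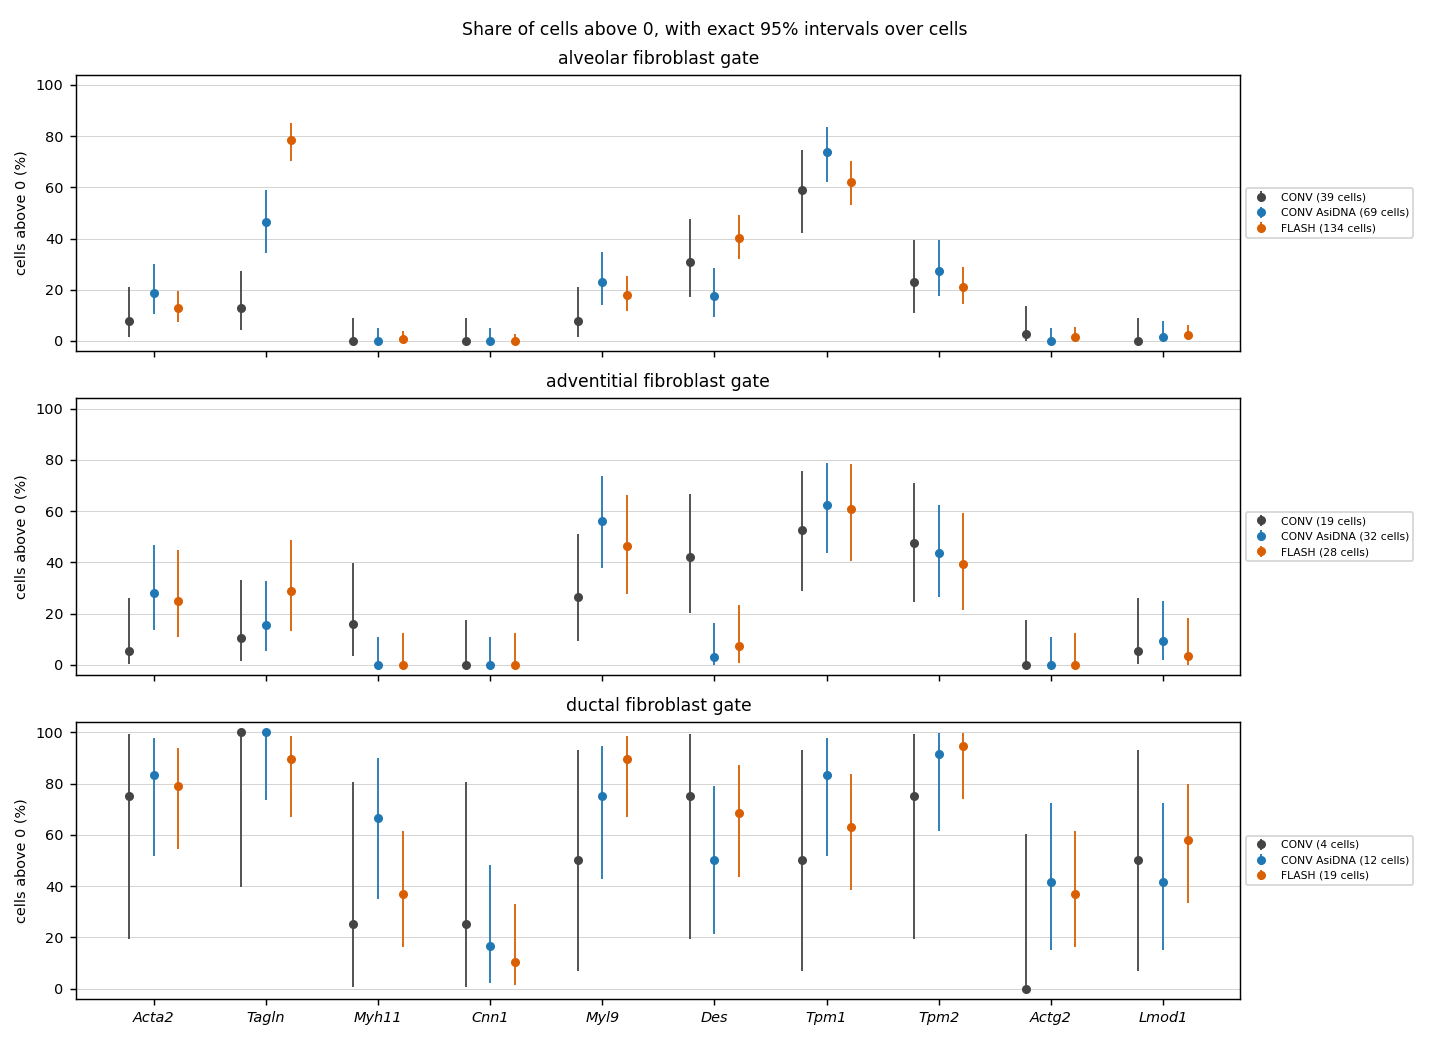
Percent of cells above 0 for each contractile gene in the alveolar, adventitial and ductal fibroblast gates, by library, with exact 95% intervals over cells (bars). The intervals of Tagln in alveolar fibroblasts do not overlap between any of the libraries. The ductal intervals overlap for every gene, but they are wide, with 4, 12 and 19 cells. No share of all genes is given for either.

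Adventitial fibroblasts, the Pi16- and Col14a1-type cells around vessels and airways, carried another mix of members. Tpm2 was above 0 in 47.4%, 43.8% and 39.3% of them and Myl9 in 26.3%, 56.2% and 46.4%, both more often than in alveolar fibroblasts of the same library. Tagln was above 0 in 10.5%, 15.6% and 28.6%, at 86.9, 44.5 and 276.5 CPM. Acta2 was above 0 in 1 of 19, 9 of 32 and 7 of 28 cells, at 97.8, 215 and 475 CPM. In the limma fit 2 of the 10 members were higher in adventitial than in alveolar fibroblasts, Myl9 (1.41 ± 0.34, limma adjusted p = 0.0222) and Tpm2 (0.98 ± 0.24, 0.0272), with a background of 2.72% of genes called higher, and each was higher in all 3 libraries. Since Cnn1, Myh11 and Actg2 were tested only through their smooth muscle sums, the count is 2 of the 7 members that reached the filter in fibroblast sums, beside 3.03% of such genes. Acta2 was higher in all 3 as well, by 1.02 ± 0.30, and missed the threshold with a limma adjusted p of 0.0564. Tagln gave -1.43 ± 0.59 and Des -1.09 ± 0.70, with limma adjusted p of 0.191 and 0.429. The median was 0.72 over the 7 members and 0.59 over the 6 that were not listed at 0 in any of these sums, beside -0.12 for all genes with such sums. The call of 2 members depends on the libraries used. Counting calls in either direction, no member was called without CONV AsiDNA or without FLASH, and 4 were called without CONV. In each case 8 members were tested, and the direction of the 4 calls is not given here.

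Over the whole fibroblast gate, 5 of the 10 members were at least 2-fold lower in CONV than in CONV AsiDNA, with a background of 5.13%. They were Acta2 (-1.72), Tagln (-1.57), Cnn1 (-1.30), Actg2 (-1.23) and Myl9 (-1.07). Against FLASH there were 3, Tagln (-2.29), Actg2 (-1.37) and Acta2 (-1.23), with a background of 5.29%. These values rest on few transcripts for Cnn1 (2, 16 and 2 adjusted counts) and Actg2 (1, 11 and 18). Between CONV AsiDNA and FLASH 2 members were 2-fold apart, Des lower (-1.15) and Cnn1 higher (1.68) in CONV AsiDNA, with a background of 5.01%. The median log2 ratio of the members was -1.02 against CONV AsiDNA and -0.86 against FLASH, beside -0.02 for all genes in both. The cells without a subtype bear on these counts, since 11 of them held 121 of the 259 adjusted counts of Acta2 in CONV AsiDNA, 65 of these in 1 cell. Without such cells, 1 of the 9 members that reached the sum was at least 2-fold lower in CONV than in CONV AsiDNA, Tagln (-1.39), with a background of 5.68% over these cells, and 1 was at least 2-fold higher, Des (1.00), with a background of 5.19%. Acta2 was at -0.99. Against FLASH 5 were lower, with a background of 5.67%, Tagln (-2.15), Actg2 (-1.33), Acta2 (-1.25), Myl9 (-1.04) and Lmod1 (-1.02). Ductal cells made up 4 of 69, 12 of 124 and 19 of 182 cells of the gate, and the part of this difference in the ratios of the whole gate was not tested. Within alveolar fibroblasts, where 6 members reached a sum of 20, Acta2, Tagln and Myl9 were at least 2-fold lower in CONV than in CONV AsiDNA (background 9.11%) and than in FLASH (9.43%). For Acta2 against FLASH the ratio was -1.92, and -0.92 without the 2 FLASH cells named above, so that it no longer reached 2-fold. Tagln and Des were at least 2-fold lower in CONV AsiDNA than in FLASH (background 6.20% in either direction). The other 4 members did not reach the sum and are not counted. Adventitial fibroblasts gave another picture against CONV AsiDNA, where 3 of the 6 members that reached the sum were below and 3 above 0, with a median of 0.05. There Acta2 was at least 2-fold lower in CONV (-1.06, background 13.6%) and Des 2-fold higher (3.90, background 8.75%), while Tagln was at 0.83. Against FLASH 4 of the 6 were at least 2-fold lower (background 12.0%), Acta2 (-2.17), Tagln (-1.56), Tpm1 (-1.32) and Myl9 (-1.13), and Des was higher (3.25, background 10.1%). The CONV values of that gate rest on 19 cells, and 12 of its 23 adjusted counts of Des came from 1 cell.

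**Figure D5:**
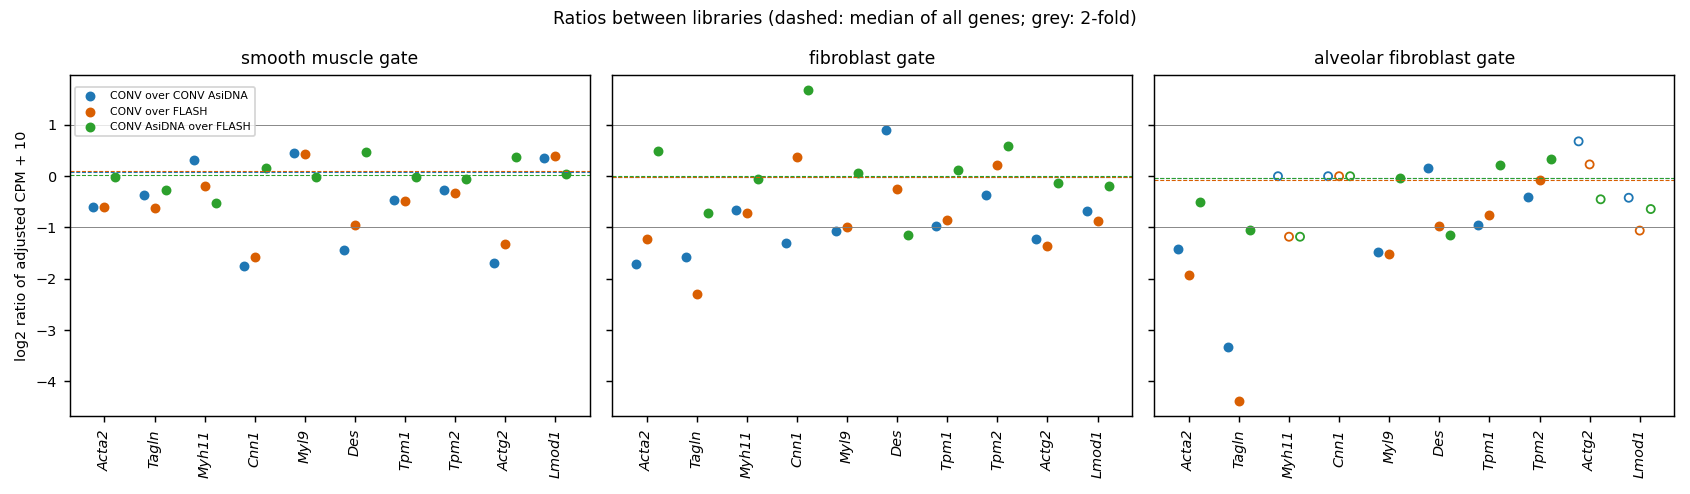
Log2 ratio of CPM plus 10 between each pair of libraries for each contractile gene in the smooth muscle, fibroblast and alveolar fibroblast gates. Filled points reach a sum of 20, open points do not, dashed lines are the median of all genes and grey lines mark 2-fold, and Tagln in alveolar fibroblasts lies lowest for CONV against both other libraries.

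Of 12 genes of myofibroblast activation in the tables, 5 reached a sum of 20 in the fibroblast gate. At least 2-fold higher in CONV were 2 of the 5 against CONV AsiDNA (Ltbp2 and Tnc, background 5.20%) and 3 against FLASH (these and Runx1, background 6.52%). Ltbp2, a matrix protein of elastic fibres, was at 731 CPM in CONV against 72.8 and 91.5 in the others, and Tnc, the matrix glycoprotein tenascin C, at 285 against 105 and 102. For Tnc, 52 adjusted counts came from 1 CONV cell, and its place among the genes 2-fold higher rests on that cell. Runx1 was at 39.3, 82.4 and 6.73 CPM. In the whole gate Cdh11 and Col12a1 differed by less than 2-fold. Within alveolar fibroblasts Ltbp2 was again higher in CONV (1094.6, 112 and 116 CPM), whereas Tnc was not 2-fold apart (185, 166.5 and 126.5 CPM). In adventitial fibroblasts Ltbp2 was at 261, 22.3 and 0 CPM and Tnc at 576, 0 and 0, where 52 of the 53 adjusted counts of Tnc came from 1 CONV cell. In alveolar fibroblasts Col12a1, a collagen, was at least 2-fold lower in CONV than in either other library (12, 34 and 37.9 CPM). Also in alveolar fibroblasts, Runx1, a transcription factor, was lower in CONV than in CONV AsiDNA and higher than in FLASH (35.9, 91.8 and 3.61 CPM). In alveolar fibroblasts 6.78% of all genes were at least 2-fold higher in CONV than in CONV AsiDNA and 5.91% than in FLASH, and 9.11% and 9.43% were lower. Acta2 was above 0 in 9, 38 and 39 fibroblasts of the 3 libraries. Of these Acta2 cells, 0, 1 and 0 had Postn above 0 and none had Cthrc1, both of them markers of scar fibroblasts, while 6, 21 and 22 had Hhip. Of those with Hhip, 3, 10 and 15 were in the ductal gate, which rests on Hhip. The share of all fibroblasts with Hhip is not given here. The fibroblast gate as a whole had 3, 1 and 1 cells with Postn and 4, 0 and 0 with Cthrc1, too few to read an overlap with Acta2 from. Postn was instead a gene of smooth muscle cells here, above 0 in 75%, 69.1% and 64.3% of them, at 676, 528 and 467 CPM, and listed at 0 in the alveolar fibroblasts of all 3 libraries.

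Of the partners of the contractile apparatus, a list of 26 genes, 15 were higher and 2 lower in smooth muscle than in alveolar fibroblasts among 25 tested, where 7.65% of all genes were called higher and 9.21% lower. Actc1 and Pdlim3 were tested only through their smooth muscle sums and had to differ. Of the 23 that reached the filter in fibroblast sums, 13 were higher and 2 lower, with a median of 1.17, beside 6.17% and 10.4% of such genes and a median of -0.09. Among the 13 were Myl6, the essential myosin light chain (4.15 ± 0.24), and Ppp1r12a, the myosin phosphatase subunit (3.77 ± 0.27), each with a limma adjusted p of at most 1.49e-07. Myh10 and Tpm3, a non-muscle myosin and tropomyosin, were lower. In the smooth muscle gate Actc1, Actg1 (726, 1558 and 1461 CPM) and Myl12a (151, 515 and 296 CPM) were at least 2-fold lower in CONV than in CONV AsiDNA, 3 of 25 beside 5.50% of all genes. Against FLASH (5.24% of all genes) these were Actc1 and Rock2, a kinase that inhibits myosin phosphatase (514, 930.1 and 1171 CPM). None of the 25 genes measured was 2-fold higher in CONV, a direction for which no share of all genes is given. In the fibroblast gate Actb (1291, 3256.5 and 3502 CPM), Actg1 (298, 880 and 757.5), Tpm4 (174, 358 and 370) and Vcl, vinculin (161, 422 and 447), were at least 2-fold lower in CONV than in either of the other libraries, 4 of 24 beside 5.13% of all genes against CONV AsiDNA and, with Myh9, 5 of 24 beside 5.29% against FLASH. Of the regulators of the smooth muscle programme, 7 reached the filter in fibroblast sums, and the 3 of them that were called, Ednra, Smad3 and Tgfbr2, were lower in smooth muscle than in alveolar fibroblasts. Myocd (myocardin), Notch3 and Ednrb were tested only through their smooth muscle sums, so only their levels are given. In the smooth muscle gate Myocd stood at 168, 275 and 296 CPM and was listed at 0 in all alveolar fibroblasts. Notch3 stood at 369, 289 and 284 CPM against 5.98, 6.8 and 5.42 in alveolar fibroblasts, and Ednrb at 168, 153.5 and 118 against 0, 3.4 and 0. In fibroblasts Srf, the serum response factor, was listed at 0 in CONV and at 23 and 12.1 CPM in the others, and Mrtfa at 0, 19.2 and 13.5 CPM. These low levels rest on few adjusted counts, so no difference between the libraries is read from them.

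Outside muscle and fibroblasts, Tpm1 was the member with a broad distribution. It was above 0 in 85.2%, 92.7% and 87.5% of alveolar type 2 cells and in 87%, 83% and 73% of ciliated cells, at 383 to 451 and 472 to 700 CPM. In alveolar type 1 cells it was at 849, 494.5 and 452 CPM, highest in CONV, and in endothelial cells at 154, 201 and 161. In dendritic cells it was above 0 in 6.49%, 10.8% and 0%, and in T cells of all libraries it was listed at 0. Endothelial cells otherwise had few members, with Acta2 above 0 in 1.08%, 0.659% and 0.621% and Tagln in 1.08%, 1.1% and 3.11% of cells.

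In mesothelial cells, which line the lung surface, Acta2 and Tagln were each above 0 in 4 of 20 CONV cells (20%, 5.73 to 43.7) and were listed at 0 in all 45 cells of CONV AsiDNA and all 38 of FLASH. Des was above 0 in 35%, 6.67% and 5.26% and Tpm2 in 60%, 6.67% and 13.2% of the cells. Of the 41 adjusted counts of Tagln in CONV, 29 came from 1 cell. In the same gate Col1a1, a fibroblast collagen, was above 0 in 85%, 11.1% and 23.7% of cells, and 19 of 20, 20 of 45 and 21 of 38 cells had 3 or more fibroblast markers. The part of these fibroblast transcripts in the result was not tested. Single cells outside the gates also carried large values. Of the Acta2 counts of unassigned cells in CONV, 167 of 324 came from 1 cell, and 1 cell of the ciliated gate in CONV AsiDNA had 93 adjusted counts of Acta2.

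The genes most like the members were found over 56 sums of 19 classes, by the Pearson correlation of log2(CPM plus 10) with the mean of the members, as a description in which sums share libraries. The nearest were Carmn (0.95), Atp1b2 (0.948), Kcnk3 (0.944), Mustn1 and Synpo2 (both 0.938), Apol6 (0.936), Hpse2 (0.932), Myocd (0.928), and Speg and Gucy1b1 (both 0.927). Kcnk3, Mustn1 and Synpo2 were markers used in the gates, so their place follows in part from the gating. Among the members themselves the correlation with that mean, of which each is a part, ran from 0.718 for Tpm1 to 0.98 for Acta2.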

How the data were processed

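Lung cells of 3 mice were profiled with 10x Genomics 3′ chemistry. The submitters' notes name Cell Ranger 6.0.0 and mm10, and how the values were adjusted is not stated in what was used here. The deposited values for each gene and cell were on a natural log scale, the log of 1 plus a whole number within 1e-06. These were converted back to whole numbers, called adjusted counts, and summed as CPM (per 1000000 adjusted counts). The analysis plan had assumed raw counts. Since totals per cell spanned a narrow range (1432 to 8462), unlike raw counts, no count model and no limit for genes listed at 0 were used, and intervals describe only the sampling of cells with a listed value above 0. The summed adjusted counts were 23908890 (CONV), 26417388 (CONV AsiDNA) and 23383510 (FLASH). Of 19622 cells, 3 were left out with fewer than 200 genes or over 20% mitochondrial counts. The other 4 tables, which hold 12 columns of sample values under identifiers foreign to the mouse, were not used. Of these, 3 also hold the authors' own comparisons (fold changes and p-values).

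A cell entered a class with at least 3 of 8 markers above 0 and more than for any other class of 19. Cells with Ptprc did not enter mesenchymal gates, and fibroblast subtypes needed 2 subtype markers. No doublet caller was run, and an alternative left out mesenchymal cells with 3 or more markers of another class. Labels give all libraries 1 date. Shares carry exact Clopper-Pearson 95% intervals. Thinning drew 1000 adjusted counts per cell, which no cell lacked. Ratios between libraries used log2(CPM + 10) over genes with a sum of at least 20. Class differences were fitted with limma 3.58.1 (trend, library block, genes at 10 CPM or more in 3 sums, Benjamini-Hochberg at 0.05) in R 4.3.3, tested on simulated data. Python 3.11.15 with numpy 2.4.6, scipy 1.17.1 and pandas 2.3.3 was used. Named genes were the 10 members, genes of 3 lists past 2-fold between libraries or among the highest in a gate, and the 10 nearest by correlation. Ednra, Ednrb, Notch3, Pdlim3, Ppp1r12a, Myh10, Tpm3, Hhip, Col1a1, Cspg4, Higd1b, Pdgfrb, Ndufa4l2, Kcnk3, Cox4i2, Trpc6, Lamc3, Pln, Smtn, Mylk, Mustn1, Kcnmb1, Synpo2, Ppp1r14a, Map3k7cl, Col14a1, Clec3b, Mfap5, Myh6, Tnnt2, Cdh11, Col12a1, Postn, Cthrc1, Smad3 and Tgfbr2 were named after their values were seen. The members and lists were chosen with earlier results of these data known.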

Additional observations from a re-analysis of the deposited data

Results flagged for a closer look

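The difference between adventitial and alveolar fibroblasts was at least 2-fold in opposite directions between libraries for 2 members. The share of all genes that did so is not given here, and the adventitial sums rest on 19, 32 and 28 cells. For Des, the log2 difference of adventitial over alveolar fibroblasts (CPM + 10) was 1.57 in CONV against -2.16 in CONV AsiDNA and -2.66 in FLASH. The CPM behind it were 249.9 against 77.8 (CONV), 7.42 against 68 (CONV AsiDNA) and 17.3 against 162.6 (FLASH). Des was above 0 in 8 of 19, 1 of 32 and 2 of 28 adventitial cells, and 12 of the 23 adjusted counts in CONV came from 1 cell. The CONV adventitial gate also stood apart in its own markers, with Col14a1 above 0 in 63.2%, 100% and 96.4% of cells (CONV, CONV AsiDNA, FLASH), Clec3b in 63.2%, 100% and 96.4% and Mfap5 in 73.7%, 96.9% and 100%. Of its 19 cells 2 had 3 or more markers of another class, against 0 in the other libraries, and without them Des stood at 231 CPM. The part of these markers in the difference was not tested. For Myh11 the difference was 2.42 (CONV), 0.00 (CONV AsiDNA) and -1.18 (FLASH), resting on 4 adjusted counts in 3 adventitial cells of CONV and 7 in 1 alveolar cell of FLASH. Tagln gave 0.90, -3.26 and -1.92 in the same order and did not reach 2-fold in CONV. With 1 mouse per condition no such difference between libraries was tested.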

How the results depend on the processing

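Of 193 values recomputed under other settings, 171 were counted as unchanged. Median ratios among them kept their sign, and counts of members called stayed within 1.5-fold. Shares of cells stayed within the interval of the reported share. Some of these medians crossed 2-fold. In fibroblasts that of CONV over CONV AsiDNA went from -1.02 to -0.83 with at least 4 markers. That of CONV over FLASH went from -0.86 to -1.24 in alveolar fibroblasts alone. Among the 171 are the shares of smooth muscle cells with Acta2 or Tagln, which lie at or near 100% and have little room to move. Several settings also left the gates nearly unchanged. The alveolar gate held 39, 69 and 134 cells with at least 2 markers and with at least 4, as in the main setting. It held the same numbers without cells that had 3 or more markers of another class. Values of that gate could hardly move under these settings. The ductal comparisons, the counts over genes that reach the filter in the other sums, the ratios centred on the median gene and those without Hhip cells, without cells of 3 or more pericyte markers or without fibroblasts of no subtype were added after seeing the data. No pericyte comparison could be run, because no cell entered that gate. Thinned to 1000 adjusted counts, the shares of fibroblasts above 0 for CONV, CONV AsiDNA and FLASH were 5.8%, 21% and 12.1% for Acta2 and 7.25%, 25% and 52.2% for Tagln, and in alveolar fibroblasts 2.56%, 21.7% and 55.2% for Tagln, in the same order as before thinning. For Acta2 in alveolar fibroblasts they were 2.56%, 11.6% and 8.21%, lower by up to 3-fold but inside the wide intervals of the unthinned shares. The median ratio of CONV AsiDNA over FLASH, which was near 0 (0.01 in fibroblasts and -0.01 in smooth muscle), changed sign to -0.26 in alveolar fibroblasts alone, -0.87 in adventitial fibroblasts alone, -0.27 with at least 4 markers and -0.35 without fibroblasts of no subtype, and in smooth muscle to 0.03 with at least 4 markers and 0.10 with 4 members added to the smooth muscle markers. That of CONV over CONV AsiDNA was 0.05 in adventitial fibroblasts alone. The counts of members called that follow include calls in either direction. Members called between adventitial and alveolar fibroblasts numbered 7 with a split by Col13a1, whose second group holds the ductal cells as well. They numbered 1 with 1 added to the CPM, and 0 to 4 with each library left out. Members called between smooth muscle and ductal fibroblasts fell to 6 with 1 added to the CPM. The cause was not tested. Fits without the library block, with all classes or without a filter changed no count by more than 1.5 times. No paired analysis was possible between conditions because each has 1 mouse, and the replicate block of the class fits is the library. With 4 to 134 cells per fibroblast subtype, a difference of a few cells is within the intervals.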
